A study of Mus musculus with 12 samples.

Results

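The Cyp3a genes of the mouse encode cytochrome P450 enzymes that oxidize drugs, steroids and other fat-soluble compounds. The gene table held 9 rows of this family among 24062 gene symbols, and all 9 were taken by name: Cyp3a11, Cyp3a13, Cyp3a16, Cyp3a25, Cyp3a41a, Cyp3a41b, Cyp3a44, Cyp3a57 and Cyp3a59. The family was chosen with its response to diet in the livers already known, so the liver values below are a description and carry no test. RNA-seq was done on 12 mice, 3 in each of 4 groups, and all had been on their diet for 21 days. The livers came from LAP-tTA/TRE-MYC mice on the FVB background ("MYC-ON"), in which a liver-active promoter drives tTA and tTA turns on a MYC transgene once doxycycline is withdrawn, here on the day of birth. The study's methods place this transgene on the Y chromosome and state that males were used for that reason. Mice 101, 102 and 103 ate the complete control diet, and mice 105, 107 and 108 ate a diet without tryptophan (No-Trp). The other samples were tumors of HCC53N, a single mouse liver cancer line without p53 and with mutant NRAS by its description, injected under the skin of NOD SCID hosts. Hosts 40, 41 and 43 ate the control diet and hosts 35, 36 and 37 the No-Trp diet. The labels call the tumor cells MYC-ON as well, and the study's methods describe female hosts, with repeats in males. The labels state an age only for a comparison with wild-type livers that is not analysed here. The study names a common day of sacrifice for MYC-ON mice on these diets in its tumor burden experiment, without saying whether the RNA came from those mice.

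P450 enzymes of this kind sit in the endoplasmic reticulum, hold a haem group and receive electrons from the reductase Por. In hepatocytes the pregnane X receptor PXR (Nr1i2) and the constitutive androstane receptor CAR (Nr1i3) bind foreign and endogenous compounds and switch on Cyp3a genes as partners of the retinoid X receptor Rxra. Several members are also set by sex and age, since the pattern of growth hormone release differs between male and female mice. Cyp3a11 and Cyp3a25 are the main adult liver forms, Cyp3a13 is made in liver and gut, Cyp3a41a and Cyp3a44 are known as female-predominant liver genes, and Cyp3a16 is known as a fetal and neonatal form.

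All 9 genes lie on chromosome 5. In GENCODE M21 on GRCm38, 8 of them form a cluster of 768 kb at chr5:145345279-146113287, and Cyp3a13 stands 7.42 Mb away at chr5:137892932-137921619. Each main transcript has 13 exons. The coding sequences fell into 3 branches. Cyp3a11, Cyp3a16, Cyp3a41a, Cyp3a41b and Cyp3a44 were 92.4% to 99.9% identical to each other, and Cyp3a25, Cyp3a57 and Cyp3a59 were 93.9% to 97.5% identical. Cyp3a13 was 74.7% to 76.5% identical to every other member. The bases that code for the haem-binding stretch of the enzyme, where the sulphur of a cysteine holds the iron, are shown because they can be compared letter by letter across the branches. They are given for 1 member of each branch and for Cyp3a44, read from GENCODE M21 transcripts, with capitals at bases that differ from Cyp3a11.
Cyp3a11: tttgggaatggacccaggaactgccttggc
Cyp3a44: tttggAaTtggacccaggaactgcAttggc
Cyp3a25: tttggAaatggacccaggaactgcAtAggc
Cyp3a13: tttgggaGtggaccAaggaactgcAttggc
The stretches of Cyp3a44, Cyp3a25 and Cyp3a13 each differ from that of Cyp3a11 at 3 of 30 bases. Cyp3a59, not shown, was the exception in the family. Its translated coding sequence had 0 matches to the haem-binding pattern FxxGxxxCxG (x for any amino acid), and every other member had 1.

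The start regions of the genes follow the same branches. The 250 bases before the start were taken from RefSeq (GRCm38.p6) for all 9 members. Cyp3a44 and Cyp3a16 are shown because their windows were 92.9% identical while only Cyp3a44 was high in No-Trp livers. Cyp3a25 and Cyp3a57 are shown for the same reason in the other branch, with 88.9% identity. Capitals mark bases that differ from the partner or are missing in it. The windows lie at chr5:145805875-145806124 (minus strand) for Cyp3a44, chr5:145469724-145469973 (minus strand) for Cyp3a16, chr5:146009619-146009868 (minus strand) for Cyp3a25 and chr5:145345019-145345268 (plus strand) for Cyp3a57.
Cyp3a44: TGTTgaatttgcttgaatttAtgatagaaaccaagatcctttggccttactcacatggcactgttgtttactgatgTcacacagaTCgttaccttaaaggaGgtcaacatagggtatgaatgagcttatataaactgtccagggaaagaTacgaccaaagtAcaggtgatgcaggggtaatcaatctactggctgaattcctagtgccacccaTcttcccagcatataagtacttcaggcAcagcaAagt
Cyp3a16: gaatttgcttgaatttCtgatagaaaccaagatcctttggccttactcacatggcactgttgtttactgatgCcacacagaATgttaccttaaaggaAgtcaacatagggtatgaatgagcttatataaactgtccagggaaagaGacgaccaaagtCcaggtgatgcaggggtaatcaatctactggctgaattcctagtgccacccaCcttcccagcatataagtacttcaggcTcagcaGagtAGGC
Cyp3a25: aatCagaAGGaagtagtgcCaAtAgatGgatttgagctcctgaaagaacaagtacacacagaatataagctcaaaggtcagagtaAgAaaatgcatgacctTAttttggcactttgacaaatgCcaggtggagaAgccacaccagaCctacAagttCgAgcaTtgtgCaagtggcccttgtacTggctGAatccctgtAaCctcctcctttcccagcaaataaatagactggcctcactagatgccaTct
Cyp3a57: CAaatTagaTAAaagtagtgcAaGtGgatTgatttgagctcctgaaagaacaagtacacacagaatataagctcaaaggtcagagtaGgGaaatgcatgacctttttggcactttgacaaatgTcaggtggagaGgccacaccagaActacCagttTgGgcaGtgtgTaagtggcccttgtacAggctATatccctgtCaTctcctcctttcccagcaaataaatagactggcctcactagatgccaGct

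Motifs were searched in these letters on both strands of the 250-base windows, and their share among 27025 genes' windows was counted in the same way. The HNF3 motif TGTTTAC was found in 5 of 9 members (Cyp3a11, Cyp3a16, Cyp3a41a, Cyp3a41b and Cyp3a44) and in 3.09% of all windows. The letters TATAAA of the TATA box motif were found in the same members and in 13.0% of all windows. They lay 234 to 229 bases before the start in Cyp3a11 and 126 to 121 in Cyp3a16. In Cyp3a41a, Cyp3a41b and Cyp3a44 they lay at 122 to 117. Whether any of them acts as a TATA box was not tested. The nuclear receptor half-site AGGTCA was found in Cyp3a11, Cyp3a25, Cyp3a44, Cyp3a57 and Cyp3a59, with 2 copies each in Cyp3a25, Cyp3a57 and Cyp3a59, and in 13.8% of all windows. In Cyp3a44 it lies 150 to 145 bases before the start and holds 1 of the capitals above, and the Cyp3a16 window has no match. The related half-site AGTTCA was found in 3 of 9 members (Cyp3a11, Cyp3a41a and Cyp3a41b) and in 11.9% of all windows. The C/EBP motif TTGCNNAA was found in Cyp3a25 alone and in 9.55% of all windows. The STAT5 motif TTCNNNGAA, the HNF1 half-site GTTAAT, the E-box CACGTG and pairs of the half-sites spaced as DR1, DR3, DR4 or ER6 were found in 0 of 9 members. They were found in 7.18%, 6.52%, 6.05%, 0.0666%, 0.0111%, 0.0222% and 0.0111% of all windows in that order. The copies share most of their bases, so their matches are not independent of each other, and the pairs contain the single half-sites.

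Near-identical copies limit what a count can say. The coding sequences of Cyp3a41a and Cyp3a41b differ at 2 of 1515 bases. Of all stretches of 50 bases in the Cyp3a41a transcript, 1.39% occur in no other annotated Cyp3a transcript, and for stretches of 150 bases 17.1% do. The read length is not given in the sources used here. Cyp3a41b had 0 reads in all 12 libraries, which allows up to 0.10 to 0.233 CPM (reads scaled to a common library size with TMM factors) for 3 reads, by counting error only. Counts of Cyp3a41a are therefore uncertain as a measure of 1 gene. Cyp3a44 is better separated, with 73.5% of its 50-base and 100% of its 150-base stretches found in no other annotated Cyp3a transcript, and Cyp3a13 shares no 50-base stretch with any of them.

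Libraries held 14660963 to 26085349 reads on genes. The libraries of control liver 101, No-Trp liver 108 and control xenografts 41 and 43 are marked as resubmitted. Control liver 102 stands apart from the other control livers. The summed level of 15 hepatocyte markers was 61008 CPM in mouse 102, 21452 in mouse 101 and 18549 in mouse 103, against 75509 to 179508 in the No-Trp livers and 1481 to 3958 in the xenografts. Of these markers, 8 of 15 rose on the No-Trp diet in the livers in edgeR. A gene is called, here and below, when its adjusted p is 0.05 or less and its log2 fold change is 1 or more in size. In the livers 9.28% of all genes tested were called higher and 7.27% lower, and no marker count was tested against these shares. The oncofetal markers, such as Afp and H19, summed to 23435 to 29537 CPM in control and 2301 to 13700 CPM in No-Trp livers, with 0 of 7 called. Erythroid markers fell in 4 of 4 tested cases, and their sum was 40.6 to 500 CPM in control and 3.01 to 16.7 CPM in No-Trp livers. Endothelial markers summed to 125 to 254 CPM in control and 291 to 439 CPM in No-Trp livers, and 2 of 8 (Stab1 and Clec4g) were called higher. Of the 8 stellate cell and fibroblast markers, Dcn and Reln were called higher, and the sums overlapped between the diets (692 to 856 and 669 to 925 CPM). The ribosomal RNA precursor Rn45s took 12.1% of the reads of mouse 101, 2.22% of mouse 102 and at most 0.758% elsewhere. In bulk tissue, fewer hepatocytes and less RNA per hepatocyte cannot be told apart. The call of 6 members described below was the same with Rn45s left out of the counts, and the part of the erythroid, oncofetal, endothelial and stellate cell shifts in the Cyp3a values was not tested. The xenografts, labelled as mouse liver cancer, also held cholangiocyte markers such as Krt19 and Epcam at 2955 to 10806 CPM in sum, against 115 to 195 CPM in the livers, and intestinal epithelial markers at 848 to 1276 CPM, against 38.7 to 90.5 CPM.

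Cyp3a11 had the highest level of the family in livers of both diets. It had 175, 460 and 95.5 CPM in control livers 101, 102 and 103. It had 1656, 2786 and 1574 CPM in No-Trp livers 105, 107 and 108. The groups did not overlap, and the lowest No-Trp liver was 3.42 times the highest control liver. The mean was 244 ± 192 CPM in control and 2005 ± 677 CPM in No-Trp livers (SD, n = 3). The log2 fold change was 3.07 with a standard error of 0.61.

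Cyp3a25, the second member by level, had 38.4, 186 and 30.2 CPM in the control livers. In the No-Trp livers it had 656, 1423 and 691 CPM. Again mouse 102 was the high control and mouse 107 the high No-Trp liver, without overlap. The log2 fold change was 3.47 with a standard error of 0.80. Leaving out mouse 102 gave 4.75 for Cyp3a25 and 3.89 for Cyp3a11.

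Cyp3a59, whose coding sequence is 97.5% identical to that of Cyp3a25, had 4.05, 10.7 and 2.92 CPM in the control livers. It had 90.6, 234 and 119 CPM in the No-Trp livers. Its log2 fold change of 4.69 with a standard error of 0.63 was numerically above that of Cyp3a25, and this difference was not tested. There were 9.46 to 17.4 Cyp3a25 reads per Cyp3a59 read in control livers and 5.79 to 7.23 in No-Trp livers, ranges that did not overlap.

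Cyp3a13, the member outside the cluster, had 18.9, 34.2 and 19.9 CPM in the control livers. In the No-Trp livers it had 64.6, 109 and 89.0 CPM. The groups did not overlap, and the log2 fold change of 1.87 with a standard error of 0.30 was the smallest among the 6 members whose groups were apart. Its share of all Cyp3a reads was 4.92% to 13.1% in control and 2.13% to 3.26% in No-Trp livers.

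The female-predominant members had the widest gaps. Cyp3a44 had 5, 24 and 44 reads in control livers 101, 102 and 103, or 0.241, 1.35 and 1.76 CPM. It had 2696, 7736 and 494 reads in No-Trp livers 105, 107 and 108, or 154, 476 and 38.4 CPM. Even the lowest No-Trp liver was 21.8 times the highest control liver. The log2 fold change was 7.64 with a standard error of 1.19.

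Cyp3a41a had 11, 19 and 5 reads in the same control livers, or 0.531, 1.07 and 0.200 CPM. It had 402, 1172 and 2768 reads in the No-Trp livers, or 23.0, 72.1 and 215 CPM. Its log2 fold change was 7.49 with a standard error of 1.07. Control mouse 102 was the high control for Cyp3a41a and lay between the other controls for Cyp3a44.

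The proportion of Cyp3a44 to Cyp3a41a varied within every group. There were 6.71 Cyp3a44 reads per Cyp3a41a read in mouse 105 and 6.60 in mouse 107, but 0.178 in mouse 108. Control livers 101, 102 and 103 had 0.455, 1.26 and 8.8, on 5 to 44 reads of either gene. The control xenografts had 0.15 to 3.3, and No-Trp xenografts 35 and 37 had 5.5 and 0.308, also on few reads. Mouse 108 thus had the highest Cyp3a41a and the lowest Cyp3a44 of its group. Summed, the genes gave 177, 548 and 254 CPM in mice 105, 107 and 108, against 0.772, 2.42 and 1.96 CPM in the controls. Cyp2a4, another female-biased P450, was also highest in mouse 108, with 112 CPM against 2.75 in mouse 105 and 14.0 in mouse 107. Other female-biased genes did not share this order. Cyp2b9 had 273, 741 and 375 CPM in mice 105, 107 and 108, and Cyp2b13, Cyp4a14, Gm4794 and Trim24 were also highest in mouse 107. Mouse 108 is 1 of the 4 resubmitted libraries, with control liver 101 and control xenografts 41 and 43. Whether that mark bears on the split was not tested.

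**Figure D1:**
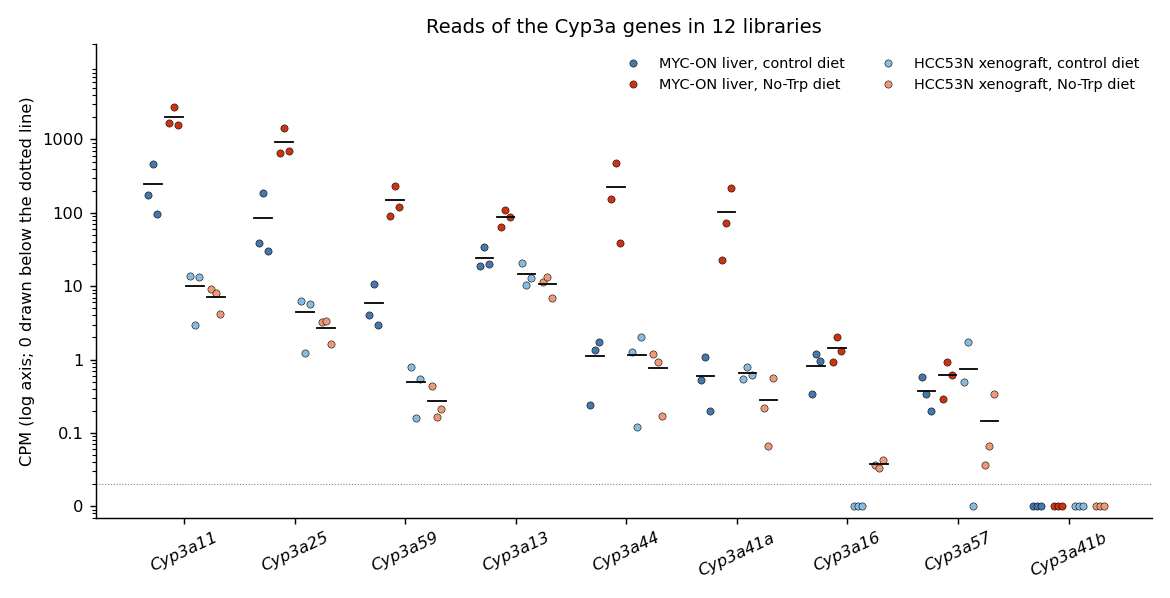
Level of each Cyp3a gene in every mouse in CPM on a log axis, with values of 0 drawn below the dotted line and the mean of each group as a bar. In 6 members every No-Trp liver sits above every control liver.

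Cyp3a16, Cyp3a57 and Cyp3a41b stayed near the limit of detection. Cyp3a16 had 7, 21 and 24 reads in the control livers and 16, 33 and 17 in the No-Trp livers, and the groups overlapped. Its log2 fold change was 0.80 with a standard error of 0.55, although its start region is close to that of Cyp3a44. Cyp3a57 had 12, 6 and 5 reads in the control livers and 5, 15 and 8 in the No-Trp livers, again with overlap. Its log2 fold change was 0.73 with a standard error of 0.62.

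In all, 8 of 9 members passed the filter on low counts in the livers and 6 of 9 in the xenografts. In the livers 6 of the 8 passed the call, all of them higher on the No-Trp diet, beside 9.28% of all 14122 genes called higher and 7.27% called lower. In these 6 every No-Trp liver was above every control liver, which held for 23.6% of all genes tested. The family was chosen on the liver contrast, so nothing is read from these counts. They also depend on single controls: without control mouse 101 or without control mouse 103, 0 members were called, with 294 and 8 genes called in the whole table. The log2 fold changes of Cyp3a11 in those fits were 2.88 and 2.66.

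**Figure D2:**
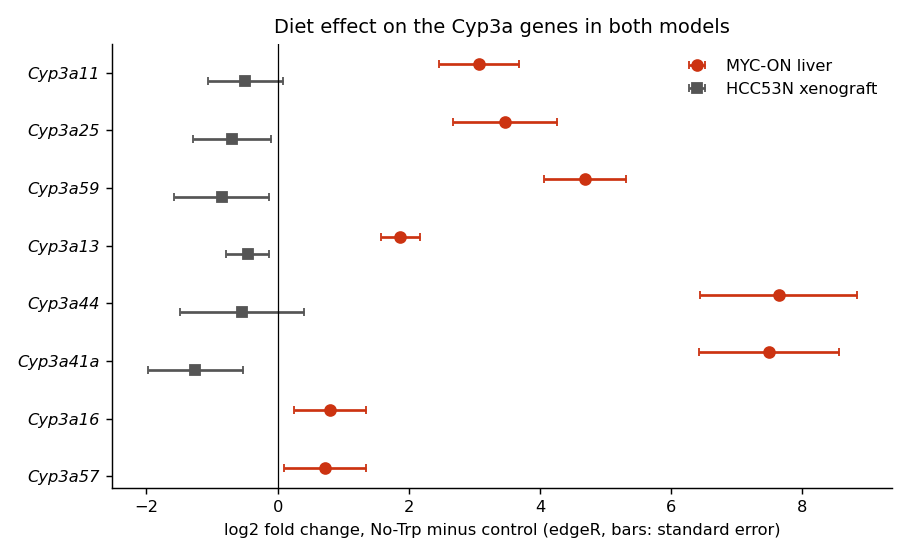
Log2 fold change (No-Trp minus control, edgeR) of the 8 tested Cyp3a genes in livers (circles) and of 6 in xenografts (squares), with the standard error as a bar. The liver values run from 0.73 for Cyp3a57 to 7.64 for Cyp3a44, and the xenograft values from -1.25 to -0.46.

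Compared per kilobase of transcript, the order of levels in control livers was Cyp3a11, Cyp3a25, Cyp3a13, Cyp3a59, Cyp3a44, Cyp3a16, Cyp3a41a and Cyp3a57. Cyp3a11 had 104 ± 81.7 and Cyp3a25 42.5 ± 43.9 CPM per kb (SD, n = 3), and their ranges over mice overlapped. Within each control liver Cyp3a11 was the higher of the pair, with 74.8 against 19.2 CPM per kb in mouse 101, 196 against 93.1 in mouse 102 and 40.7 against 15.1 in mouse 103. In No-Trp livers Cyp3a44 held the third place with 114 ± 116 CPM per kb, ahead of Cyp3a59 with 74.4 ± 38.2, Cyp3a41a with 50.2 ± 48.5 and Cyp3a13 with 29.6 ± 7.50. The ranges of Cyp3a44, Cyp3a59 and Cyp3a41a overlapped. Cyp3a11 with 856 ± 289 and Cyp3a25 with 462 ± 217 CPM per kb stayed first and second in No-Trp livers. The whole family had 4939, 12334 and 3796 reads in the control livers and 46240, 82978 and 35113 in the No-Trp livers, without overlap. That is 0.0164% to 0.0664% of a control library and 0.230% to 0.349% of a No-Trp library.

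Since hepatocyte markers moved with diet too, the 6 called members were also set against them. Cyp3a11 had 8.17, 7.54 and 5.15 reads per 1000 reads of the 15 markers in control livers 101, 102 and 103. In No-Trp livers 105, 107 and 108 it had 17.5, 15.5 and 20.8. On this scale mouse 102 lay between the other controls, and the diets stayed apart. Cyp3a25 had 1.79, 3.05 and 1.63 against 6.94, 7.93 and 9.15, and Cyp3a59 had 0.189, 0.176 and 0.157 against 0.960, 1.31 and 1.58. Cyp3a44 had 0.0112, 0.0222 and 0.0947 against 1.63, 2.65 and 0.508, and Cyp3a41a 0.0247, 0.0176 and 0.0108 against 0.244, 0.402 and 2.85. Cyp3a13 was the exception, with 0.879, 0.561 and 1.07 in control and 0.684, 0.606 and 1.18 in No-Trp livers, where the groups overlapped.

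**Figure D3:**
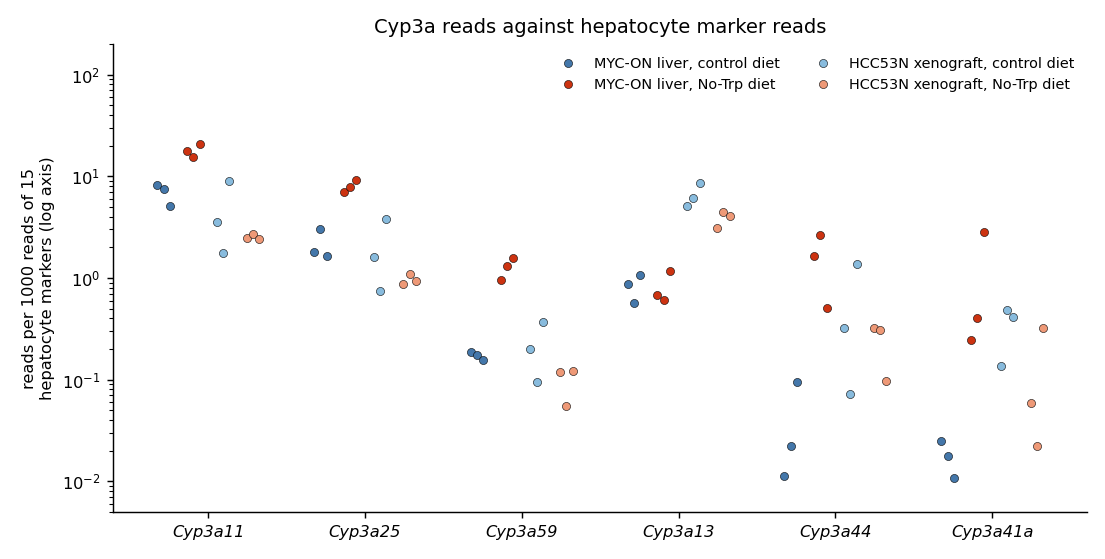
Reads of 6 Cyp3a genes per 1000 reads of 15 hepatocyte markers in each mouse, on a log axis. The No-Trp livers lie above the control livers for 5 genes, and for Cyp3a13 the control livers at 0.561 to 1.07 overlap the No-Trp livers at 0.606 to 1.18.

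In the xenografts, a diet contrast that could be tested for the members, 0 of 6 tested members were called, beside 0.36% of all 14704 genes (0.245% higher and 0.116% lower). None of the 6 had an unadjusted p below 0.05 in edgeR, and DESeq2 also called 0. Control tumors 41 and 43 are resubmitted libraries and none of the No-Trp tumors is, so that mark goes partly with diet. With resubmission as a covariate the log2 fold changes were -0.97 for Cyp3a11, -0.95 for Cyp3a13 and -1.22 for Cyp3a25. They were -0.98 for Cyp3a41a and -0.73 for Cyp3a44. That fit called 0 members and 4 genes in the whole table. Cyp3a11 had 13.9, 2.91 and 13.2 CPM in control hosts 40, 41 and 43. It had 9.14, 8.17 and 4.20 CPM in No-Trp hosts 35, 36 and 37. The log2 fold change was -0.49 (edgeR adjusted p = 0.707), with a 95% interval from -1.82 to 0.83.

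Cyp3a13 had 20.4, 10.3 and 12.9 CPM in control and 11.5, 13.5 and 7.0 CPM in No-Trp xenografts. The groups overlapped, with a log2 fold change of -0.46 (edgeR adjusted p = 0.519) and a 95% interval from -1.20 to 0.29. Cyp3a25 gave -0.70 (interval -2.05 to 0.65, edgeR adjusted p = 0.590), and Cyp3a59 gave -0.85 (interval -2.49 to 0.79, edgeR adjusted p = 0.590). Cyp3a41a gave -1.25 (interval -2.90 to 0.39, edgeR adjusted p = 0.420) on 2 to 20 reads per library. Cyp3a44 gave -0.54 (interval -2.71 to 1.63, edgeR adjusted p = 0.813) on 3 to 33 reads per library. Each interval covers the effects that the fit leaves possible at this depth with 3 hosts per group, and no change lies within all of them.

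Control xenograft 41 had the lowest Cyp3a11, Cyp3a13, Cyp3a25, Cyp3a44 and Cyp3a59 of the control tumors and the highest Cyp3a57, with 43 reads. Cyp3a57 had 10 and 0 reads in the other control tumors and 1, 2 and 8 reads in the No-Trp tumors. Cyp3a16 had 0 reads in the control and 1 read in each No-Trp tumor, too few for a fold.

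The make-up of the family differed between the models. Cyp3a11 gave 63.0% to 73.6% of the Cyp3a reads of control livers, 54.6% to 62.6% of those of No-Trp livers and 16.9% to 37.9% of those of xenografts. Cyp3a13 gave 36.8% (95% Wilson interval 33.0% to 40.8%) to 59.7% (55.0% to 64.2%) in the xenografts, against 13.1% (12.1% to 14.2%) at most in the livers. These intervals cover counting error only. The whole family had 333 to 892 reads per xenograft. The part of the intestinal and cholangiocyte marker levels in the share of Cyp3a13 was not tested.

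Against the mean of the No-Trp livers, the mean of the 6 xenografts was 0.429% for Cyp3a11, 0.386% for Cyp3a25, 0.448% for Cyp3a41a, 0.427% for Cyp3a44 and 0.260% for Cyp3a59. The hepatocyte gene Alb, named after its value was seen, stood at 0.415% on the same measure. Cyp3a16 stood at 1.31%, Cyp3a13 at 14.4% and Cyp3a57 at 72.3%. Against the mean of the control livers the values lay farther apart, with 3.53% for Cyp3a11, 4.20% for Cyp3a25 and 6.53% for Cyp3a59, but 77.2% for Cyp3a41a and 85.1% for Cyp3a44. Alb stood at 1.80% and Cyp3a13 at 51.8% of the control livers. The summed hepatocyte markers had means of 2369 CPM in control and 2812 CPM in No-Trp xenografts. Their means were 33670 CPM in control and 116478 CPM in No-Trp livers. The hepatocyte factor Hnf4a had means of 191 and 227 CPM in those xenografts, against 535 and 941 CPM in the livers. The marker sum and Hnf4a thus kept larger shares of the No-Trp liver level than Alb. Ddx3y, Eif2s3y, Kdm5d and Uty, which lie on the Y chromosome that cells of female hosts lack, stood at 0.622% to 1.10% of the No-Trp livers. There were 2.20 to 2.83 Cyp3a11 reads per Cyp3a25 read in the xenografts and 1.96 to 2.53 in the No-Trp livers, while the control livers had 2.47 to 4.57. Where the few reads of the cluster members in the xenografts came from was not tested.

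**Figure D4:**
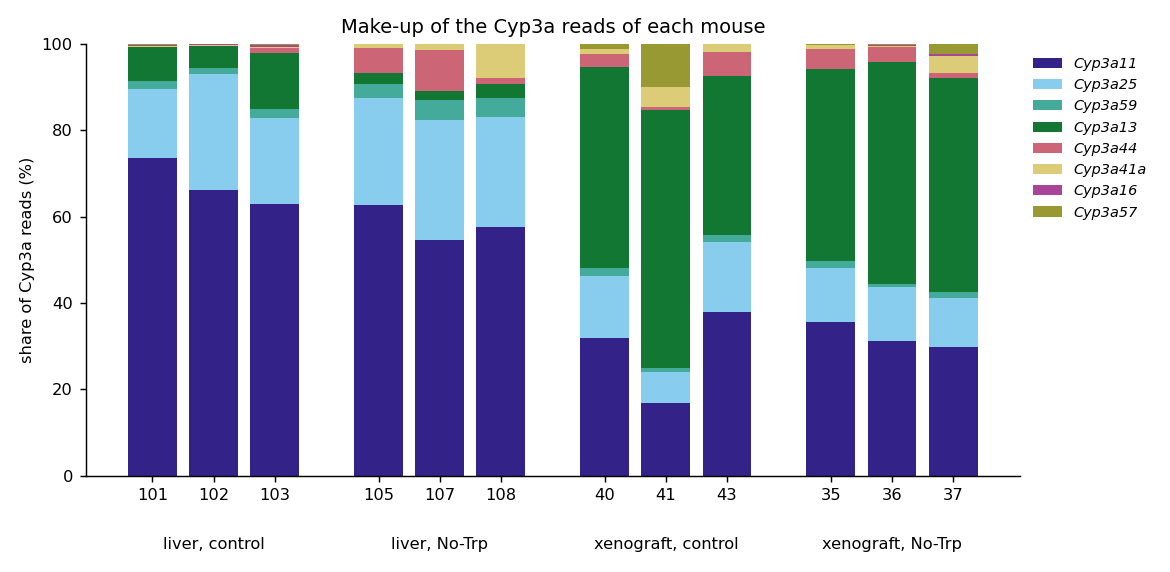
Share of each Cyp3a gene in the Cyp3a reads of every mouse, in percent, with mice named by number under the bars. Cyp3a11 makes up the largest part of each liver bar (54.6% to 73.6%), and Cyp3a13 makes up 36.8% to 59.7% of the xenograft bars.

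The receptors that switch on Cyp3a genes were followed with a list of 25 xenobiotic receptors and liver transcription factors. In the livers 11 of 25 were called higher and 0 lower, with a median log2 fold change of 1.04 against 0.00 for all genes. Of all genes tested, 9.28% were called higher and 7.27% lower in the livers, and 0.245% and 0.116% in the xenografts. These shares stand beside every list count here and below, and no list was tested against them. Nr1i2, encoding PXR, had 88.4, 110 and 80.8 CPM in control and 231, 250 and 263 CPM in No-Trp livers. Its log2 rise of 1.43 had a standard error of 0.17 (edgeR adjusted p = 0.0127). Nr1i3, encoding CAR, had 20.7, 67.7 and 20.3 CPM in control and 252, 472 and 224 CPM in No-Trp livers. It rose by 3.15 (standard error 0.58, edgeR adjusted p = 0.0196), and mouse 102 was again the high control. Rxra rose by 1.46. Hnf4a, a central factor of hepatocyte identity, had a log2 fold change of 0.83 (edgeR adjusted p = 0.0468) and was not called, being too small a change.

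Of the other listed factors, the bile acid receptor Nr1h4 rose by 2.02, the fatty acid receptor Ppara by 2.25 and the coactivator Ppargc1a by 1.54. The liver factors Cebpa, Cebpb and Prox1 rose by 1.04, 1.9 and 1.06. Ahr, the aryl hydrocarbon receptor, rose by 1.42, and Nr2f1 by 1.56 from a mean of 0.482 CPM. In the xenografts 0 of 22 tested factors were called higher and 1 lower. That gene was Cebpb, with a log2 fold change of -1.25 (edgeR adjusted p = 0.0235). Without control liver 103, 0 of the 25 factors were called, and without control liver 101, 2 were.

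The machinery that P450 enzymes need was counted next. Of 13 tested genes of electron transfer and haem supply, 2 were called higher and 0 lower, beside 9.28% and 7.27% of all genes. The list median was 0.28, and nothing is read from a count this small. Por, the reductase that feeds electrons to all microsomal P450 enzymes, had 133, 303 and 167 CPM in control and 1397, 2725 and 1407 CPM in No-Trp livers. It rose by 3.22 (standard error 0.45, edgeR adjusted p = 0.0142), and the groups did not overlap. Pgrmc1, a haem-binding membrane protein, rose by 1.55. In the xenografts 0 of 13 were called.

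Other genes that PXR and CAR are known to switch on were counted from a list of 32, all tested. In the livers 12 were called higher and 2 lower, beside 9.28% and 7.27% of all genes, with a median of 1.96. Cyp2b9 had 4.05, 3.49 and 5.91 CPM in control and 273, 741 and 375 CPM in No-Trp livers, a rise of 6.70 (standard error 0.51, edgeR adjusted p = 0.00432). Cyp2b13 rose by 6.65 and Cyp2a4 by 5.76. These genes also stand on the female-biased list below. Cyp2b10 rose by 3.38 and Cyp2c55 by 3.26. Cyp2c29 and Cyp2c37 had log2 fold changes of 2.75 and 2.90, and Cyp2c50 and Cyp2c54 of -0.61 and -0.58, and none of these Cyp2c genes was called. The drug efflux pumps of the list did not move together. Abcb1b fell by 2.39 and Abcb1a by 1.24, while Abcc2 rose by 2.68. Abcc3 and Abcc4 had log2 fold changes of 0.99 and 1.10 and were not called. Without control mouse 102 the count was 22 higher, and without control mouse 103 it was 1. In the xenografts 0 of 25 were called.

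The female-biased liver genes, the group to which Cyp3a41a and Cyp3a44 are counted in the background above, were represented by 29 others. Of 27 tested in the livers, 18 were called higher and 0 lower, beside 9.28% and 7.27% of all genes. The median was 2.68, also when the 2 genes with at most 3 reads in the control livers were set at that floor. Cyp4a14, which oxidizes fatty acids, had 4.05, 36.6 and 14.7 CPM in control and 1673, 3310 and 1753 CPM in No-Trp livers, a rise of 6.95 (standard error 0.92, edgeR adjusted p = 0.0139). Gm4794 had 0, 0 and 1 reads in the control livers and 97, 346 and 53 reads in the No-Trp livers. Of the list, 4 genes also stand among the PXR and CAR targets, namely Cyp2b9, Cyp2b13, Cyp2a4 and Sult2a1. Sult2a1 went the other way, with a log2 fold change of -1.63, and was not called. Without control mouse 103 the count was 2 and without mouse 101 it was 10, while it was 19 without mouse 102. In the xenografts 2 of 14 were called higher, Abcd2 and Lpl, while adipocyte markers summed to 411 to 867 CPM in No-Trp and 14.4 to 69.9 CPM in control tumors, with 4 of 7 called higher. The part of fat cells in those calls was not tested.

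Of 22 tested genes of the male-biased list, 1 was called higher and 0 lower, beside 9.28% and 7.27% of all genes. The called gene was Gstp1 with a rise of 1.15, and the median of the tested genes was -0.57. The sum of the list was 495 to 5588 CPM in control and 1453 to 1725 CPM in No-Trp livers. Without control mouse 102 the counts were 11 higher and 2 lower, and DESeq2 gave 2 higher and 3 lower, so these values show no settled direction. By their Y-linked genes all 6 livers were male, with 74.1 to 130 CPM of Ddx3y in each.

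Genes of both liver zones were counted as well, because Cyp3a11 is known as a gene of the pericentral zone. Of 20 pericentral genes 3 were called higher (Nr1i3, Cyp27a1 and Ahr) and 0 lower, with a median of 1.49. Of 19 tested periportal genes 9 were called higher and 1 lower, with a median of 1.26. Beside both lists stand 9.28% of all genes called higher and 7.27% called lower. Neither count was tested against these shares. The periportal enzymes Arg1 and Hal rose by 2.9 and 2.68, and the adhesion gene Cdh1 fell by 1.44. Without control mouse 102 the counts were 17 of the pericentral and 14 of the periportal genes, and without mouse 103 both were 0. In the xenografts 0 genes of either list were called.

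**Figure D5:**
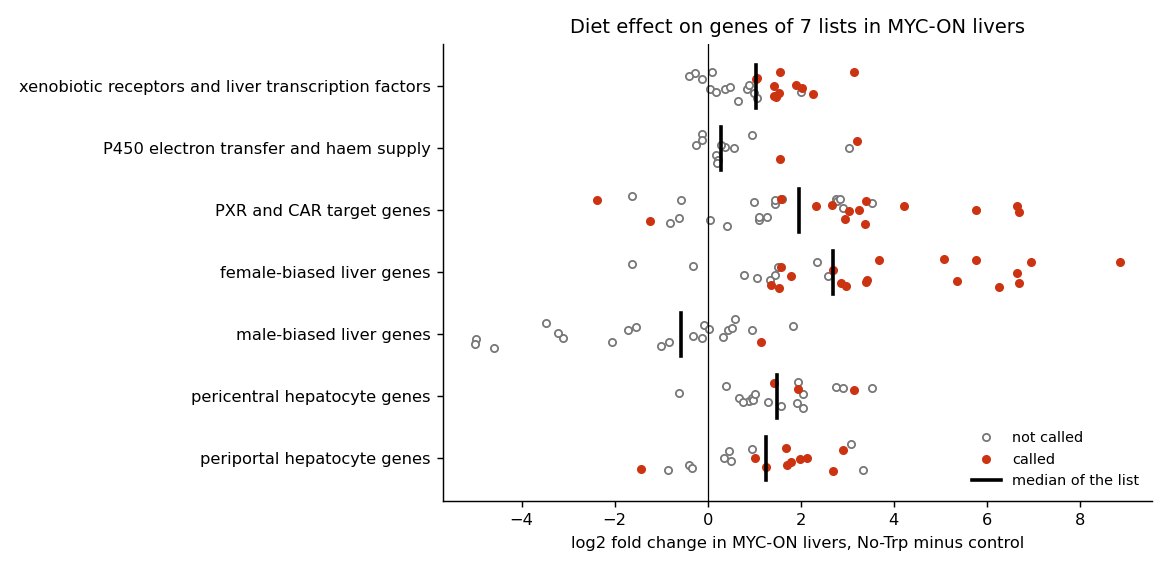
Log2 fold change in MYC-ON livers (No-Trp minus control) of the tested genes of 7 lists, with called genes filled and the median of each list as a black bar. The medians run from -0.57 for the male-biased list to 2.68 for the female-biased list, and all genes together have a median of 0.00. The fitted value farthest to the right, Gm4794, rests on 1 read in the control livers.

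The genes whose levels followed the family most closely over the 6 livers were Coasy, Gosr1, Wdr45, Trim24 and Slc35d1. Their Pearson correlation with the mean of the 8 tested members (centred log2 CPM) ran from 0.998 to 0.999, as a description over libraries that share their diet groups. Coasy makes coenzyme A. Trim24, a transcriptional cofactor, had 28.4, 37.3 and 26.8 CPM in control and 70.3, 92.1 and 71.5 CPM in No-Trp livers, and it stands on the female-biased list. Among the members, Cyp3a59 with 0.998 and Cyp3a13 with 0.996 were closest to the family mean, and Cyp3a57 with 0.569 and Cyp3a16 with 0.728 were farthest. The mean contains each of these members, so their values are raised by construction and are a description only. Cyp3a11 and Cyp3a25 had a correlation of 0.994 with each other, and Cyp3a41a and Cyp3a44 one of 0.853.

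The genes around the cluster were counted in the same way. Of 15 tested genes with a start within 500 kb of the 8-gene cluster, 0 were called in edgeR, with a median log2 fold change of 0.03, beside the 9.28% of all genes called higher and 7.27% called lower. Around Cyp3a13, 4 of 33 tested genes were called higher and 1 lower, with a median of 0.07. Neither count was tested against the rest of the genes. Azgp1, a secreted lipid-mobilizing glycoprotein, rose by 2.99, Gjc3 by 2.43, the hepatocyte iron sensor Tfr2 by 1.66 and Agfg2 by 1.07. Mcm7, which helps to unwind DNA in replication, fell by 1.33.

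The diet effects of both models were also set side by side in a fit over all 12 libraries, in which the effect differed for 15.6% of 15472 genes at an adjusted p of at most 0.05. For the members the difference is a description. The xenograft effect minus the liver effect was -3.51 for Cyp3a11 (standard error 0.90), -8.76 for Cyp3a41a (standard error 1.34) and -8.07 for Cyp3a44 (standard error 1.56). Between the models on the control diet, Cyp3a11 was lower in xenografts by a log2 difference of -4.61 (standard error 0.71). Cyp3a13 differed there by -0.74 (standard error 0.33), and Cyp3a41a and Cyp3a44 by 0.19 and -0.07 (standard errors 0.95 and 1.11). For Cyp3a13 the control livers and xenografts overlapped in CPM.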

How the data were processed

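Polyadenylated RNA of 12 mice was sequenced. The authors deposited raw read counts per gene, made per the labels and the study's methods by trimming with Trim Galore, aligning to mm10 with STAR 2.7.2b and counting with HTSeq. Strand setting and read length are not given in the sources used here. The deposited count files also list reads left out of the counting (24.7% to 39.4% per library), which were dropped here. For each model, the deposited counts of the diet groups were fitted with edgeR 4.0.16 (R 4.3.3, TMM, filterByExpr, robust glmQLFit, glmQLFTest, two-sided), with Benjamini-Hochberg adjustment over all genes. A call needed an adjusted p of 0.05 or less and a log2 fold change of 1 or more in size. The standard error is the log2 fold change over the square root of F. The 95% intervals use the degrees of freedom of the test, 7.65 to 8.83, recovered from F and p. These include the part that the fit takes from all genes, beyond the plain residual ones. The model difference used the interaction term over all 12 libraries. The test was tried on simulated data first.

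The members, gene lists and marker lists were chosen with earlier results of these data known. Named genes are all members, the 4 main receptors and each other called factor, up to 3 called genes per direction and list with a mean of at least 100 counts in the higher group, the 5 genes most alike, called genes within 500 kb and Rn45s. Genes outside this rule (the Y-linked genes, Alb, Abcc2, Abcc3, Abcc4, Abcd2, Lpl, Stab1, Clec4g, Dcn, Reln, Sult2a1, Cyp2b10, Cyp2c29, Cyp2c37, Cyp2c50, Cyp2c54 and Cyp2c55) were named after their values were seen. A further gene is not reported here. Replicates are separate mice, and no 2 libraries agreed within sampling noise. Alternatives were DESeq2 1.42.0, RLE factors, library totals, no filter, resubmission as a covariate, 1 fit over all libraries, Rn45s left out, both Cyp3a41 copies summed, and each library left out. Sequences are from RefSeq and GENCODE, aligned with Biopython. The planned protein comparison was replaced by coding sequences.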

Additional observations from a re-analysis of the deposited data

Results flagged for a closer look

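Each value here is the diet effect in the xenografts minus that in the livers, on the log2 scale, in edgeR over all 12 libraries. Of the named genes outside the family, 24 of 37 differed between the models at an adjusted p of at most 0.05. They were named mostly for their liver calls, so this count is a description. The members are given as values without a test, since they were chosen on the liver response: Cyp3a11 -3.51, Cyp3a13 -2.29, Cyp3a25 -4.11, Cyp3a41a -8.76, Cyp3a44 -8.07 and Cyp3a59 -5.47.

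Among receptors and factors the difference was -1.76 for Nr1i2, -3.22 for Nr1i3, -1.46 for Rxra, -3.12 for Cebpb, -1.72 for Ahr, -2.32 for Ppargc1a and -2.42 for Nr2f1. Cebpb rose in the livers and fell in the xenografts. For the partners of P450 enzymes it was -3.39 for Por and -1.49 for Pgrmc1.

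Among PXR and CAR targets and sex-biased genes it was -7.30 for Cyp2b9, -7.32 for Cyp2b13, -6.30 for Cyp2a4, 3.0 for Abcb1b, -7.36 for Cyp4a14 and -1.20 for Gstp1. The fitted -10.14 for Gm4794 rests on 1 read in the control livers and depends on the prior count. Of the periportal genes, Arg1 gave -2.45 and Cdh1 2.23. Of the genes most alike, Coasy gave -1.93, Gosr1 -0.69, Wdr45 -1.33 and Trim24 -1.88, and of the neighbours of Cyp3a13, Agfg2 gave -1.11 and Mcm7 1.53.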

How the results depend on the processing

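The count of 6 called members in the livers held in DESeq2, with RLE factors, library totals, no filter, the resubmission covariate, 1 fit over all libraries, Rn45s left out and both Cyp3a41 copies summed. It ranged from 0 (without control 101 or without control 103) to 6 when single livers were left out, with 4 without mouse 105 and 5 without mouse 107. It was 0 in the xenografts in every fit. No liver log2 fold change of a member changed sign. In the xenografts Cyp3a44 ranged from -1.10 (without control 41) to 0.16 (without control 43, the sign reversed), and the other 5 tested members kept their sign.

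Counts called higher ranged over the fits without 1 liver from 0 to 12 for receptors and factors, 0 to 4 for electron transfer and haem supply, 1 to 22 for PXR and CAR targets, 2 to 21 for female-biased, 0 to 11 for male-biased, 0 to 17 for pericentral and 0 to 14 for periportal genes. The lowest counts came without control 103, and for the male-biased list also without 101, 105 or 108. Counts called lower ranged from 0 to 2 for PXR and CAR targets and for male-biased genes and from 0 to 1 for periportal genes. With library totals, 7 receptors and factors and 0 male-biased genes were called higher. With the resubmission covariate, 2 male-biased genes were. DESeq2 called 2 male-biased genes higher and 3 lower and 7 pericentral genes higher. The fit over all libraries called 4 male-biased genes lower and 5 pericentral genes higher. The causes were not tested. No paired analysis was possible because no animal number is shared between groups. The 3 mice per group and the 0 to 43 reads of most members per xenograft limit what could be detected.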
